A study of Drosophila melanogaster with 3 samples.

Results

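Neuropeptides are short signals that neurons and the hormone-secreting (enteroendocrine) cells of the gut cut from longer precursor proteins and release from dense-core vesicles. Most act on G protein-coupled receptors, and in the fly larva they control feeding, water balance, gut movement, sleep and growth. The larval fat body, the fly's fat store and liver, is a target of many such signals. The genes are Hug, Capa, Pdf, Dh44 and Crz, whose peptides are made by neurons of the brain and ventral nerve cord (the brain group), and AstA, AstC, NPF, Dh31 and Mip, whose peptides are made by neurons and also by enteroendocrine cells of the midgut (the brain and gut group). All 10 were found by symbol, 1 row each, among the 16509 genes counted. They were chosen from the counts of these same 3 libraries, in which several of them had been seen to be high with Hpo overexpression, so their values are a description and no test rests on them.

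Total RNA was measured in 3 Drosophila melanogaster genotypes, with 1 library per genotype: Dcg/+, the control with the Gal4 driver alone, Dcg > Hpo, in which the driver expresses the Hippo kinase, and Dcg > Hpo-RNAi, in which it expresses an RNAi construct against hpo. The driver is described in the methods as specific to the fat body, and all 3 genotypes carry it. The tissue is labelled as larval fat, and the study describes fat bodies dissected from many larvae, of the third instar, although the deposited extraction protocol speaks of adult heads. The sex of the larvae is not given. The libraries held 21918672, 23227940 and 23524682 counts, in the order control, Dcg > Hpo, Dcg > Hpo-RNAi, which is kept wherever 3 values are given. hpo had 289, 11568 and 182 counts, which matches the labels.

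The libraries looked like larval fat body. All 8 listed fat body genes, storage and lipid carrier proteins among them, were counted in every library, with summed levels of 188000, 194000 and 184000 CPM (counts per 1000000 counts of the library). Most genes of adult photoreceptors had few reads. ninaE, the main rhodopsin of the adult eye, had 18, 6 and 5 counts, Rh3 had 0 in every library, and trp and ninaC had 0 in Dcg/+ and Dcg > Hpo. Of the 9 genes of that list, inaD (2643, 2891 and 3405 counts) and norpA (124, 308 and 175) had more than the 18 of ninaE. A single library per genotype gives no estimate of the spread between animals, so there is no test between genotypes, and the 95% intervals given (exact Poisson for a count, exact Clopper-Pearson for a ratio) cover counting error only. A gene was called higher when its share of the library was at least 2-fold that of the other library with an interval wholly above 1, and called lower when the ratio was at most 0.5 and the whole interval lay under 1. A count of 0 was set to a floor of 3 counts for the fold. The interval, which uses the 0 itself, gives the limit of such a fold. No fold is given when both counts are 3 or fewer. Of the 8 fat body genes, 1 was called higher in Dcg > Hpo over Dcg/+ and 0 lower. It was Apoltp, with 354, 1285 and 208 counts and a ratio of 3.43 (3.04 to 3.86).

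In control fat tissue the neuropeptide genes were at the edge of detection. Together they had 90 counts, or 4.11 CPM, and 7 of the 10 had any count. AstA led with 41 counts (95% interval 29.4 to 55.6), which was 45.6% of the sum (35.0 to 56.4). Capa followed with 13, Pdf with 11 and Dh44 with 10, and Crz, AstC and Dh31 had 5 each. Among these 6 the counting intervals overlapped, so their order is not resolved. Hug, NPF and Mip had 0, with an interval up to 3.69 counts, and the floor of 3 counts is 0.137 CPM. Each read of these libraries comes from the 3′ end of an mRNA, so counts were not divided by gene length, and an order of counts is not exactly an order of molecules.

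**Figure D1:**
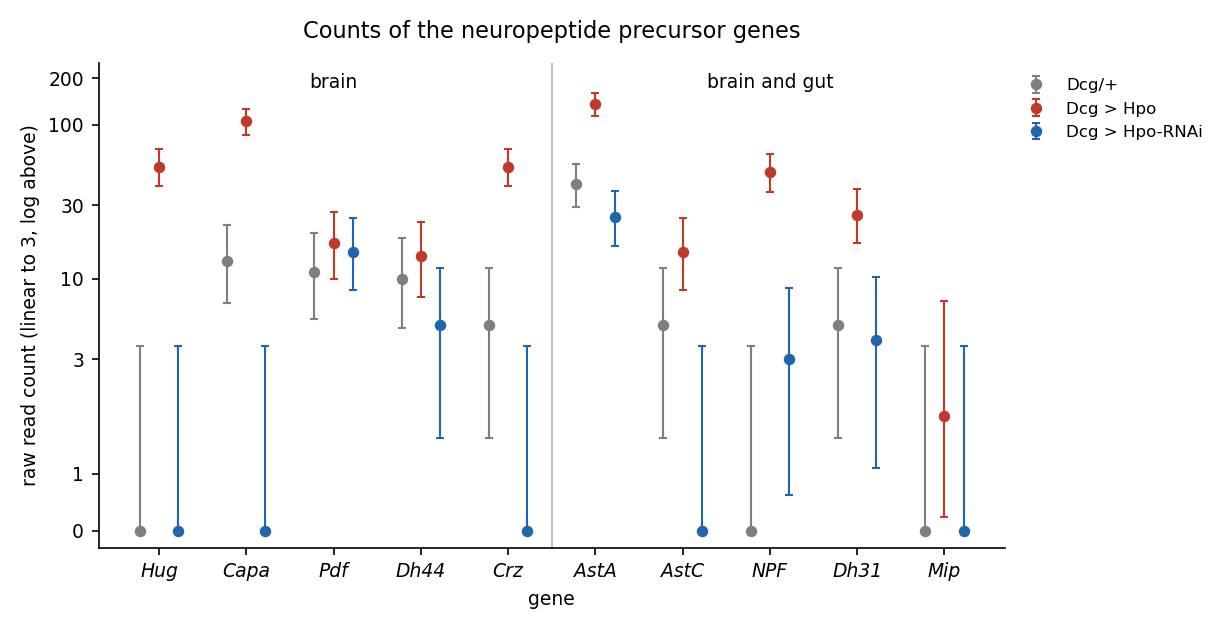
Raw read counts (vertical axis, linear up to 3 and logarithmic above) of the 10 neuropeptide precursor genes in the 3 libraries, with exact Poisson 95% intervals as bars. The Dcg > Hpo point is the highest for every gene, and for Hug, Capa, Crz, AstA, NPF and Dh31 its interval lies clear of both other libraries.

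The peptide genes were higher as a group in the Dcg > Hpo library. In bulk RNA, more cells of a type and more RNA per cell cannot be told apart. All 10 had counts there, with a sum of 470, or 20.2 CPM, 4.93-fold the control share (95% interval 3.93 to 6.25). Of the 10 genes, 6 were called higher (Hug, Capa, Crz, AstA, NPF and Dh31) and 0 lower. By the same rule 15.6% of the 14398 genes with a count in any library were called higher and 20.1% lower. The members were picked with this contrast in view, so the gap to that background is no result about them. The count of 6 was the same with TMM and median-of-ratios scaling and rose to 10 with quantile normalization, which gives no interval. The median log2 ratio of the 10 genes (scaled counts plus 1) was 1.86, beside 0.04 for all genes with a count.

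Within the brain group, 3 genes were called higher. Hug (FBgn0028374, chromosome 3R of dm6, 12526188 to 12529076) encodes hugin, a pyrokinin of neurons below the esophagus that link taste to feeding. It had 0 counts in Dcg/+, 53 in Dcg > Hpo (39.7 to 69.3) and 0 in Dcg > Hpo-RNAi, so it was not detected in the other libraries. Over the control its fold was 16.7 with the floor of 3 counts, and the interval began at 13.1. Hug lies wholly within the span of Octbeta3R, a gene on the opposite strand with 2, 24 and 3 counts. Whether the exons of Octbeta3R overlap those of Hug was not examined. Whether reads were assigned by strand is not given in the sources used here, so reads of the pair may not be separable. Capa (FBgn0039722, 3R, 29912991 to 29914346) encodes peptides that act on the Malpighian tubules, the fly's kidney, and a pyrokinin. It had 13, 105 and 0 counts, a ratio of 7.62 in Dcg > Hpo (4.27 to 14.8). Crz (FBgn0013767, 3R, 14314854 to 14315716) encodes corazonin, a stress peptide related to adipokinetic hormone, and had 5, 53 and 0 counts. Its ratio was 10 in Dcg > Hpo (4.03 to 32.1), with an interval that overlaps that of Capa.

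Pdf and Dh44, the other members of that group, were called in none of the 3 comparisons. Pdf (FBgn0023178, 3R, 26455462 to 26456141) encodes the pigment-dispersing factor of clock neurons. It had 11, 17 and 15 counts, and the ratio to the control was 1.46 (0.644 to 3.44) and 1.27 (0.545 to 3.06). Dh44 (FBgn0012344, 3R, 9638182 to 9650706) encodes a diuretic hormone of median brain neurons that is related to corticotropin-releasing factor. It had 10, 14 and 5 counts, and a ratio of 1.32 in Dcg > Hpo (0.546 to 3.32). With knockdown the Dh44 ratio was 0.466 (0.125 to 1.5), and between overexpression and knockdown it was 2.84 (0.965 to 10.1), so its direction was not resolved. With quantile normalization Pdf came to 2.95 and Dh44 to 2.69 in Dcg > Hpo over the control. Both intervals in Dcg > Hpo over the control hold 1 and end above 3, so for either gene the counts allow no difference as well as a 3-fold one.

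In the brain and gut group, AstA was the most abundant in every library. AstA (FBgn0015591, 3R, 24760530 to 24765071) encodes the allatostatin A peptides, which curb feeding. It had 41, 136 and 25 counts, a ratio of 3.13 in Dcg > Hpo (2.19 to 4.55) and 0.568 in Dcg > Hpo-RNAi (0.331 to 0.957), which did not reach 0.5. NPF (FBgn0027109, 3R, 16609220 to 16611325), the fly relative of vertebrate neuropeptide Y, had 0, 49 and 3 counts. With the floor its fold in Dcg > Hpo over the control was 15.4, and the interval began at 12.1. Dh31 (FBgn0032048, chromosome 2L, 8491868 to 8506845) encodes a diuretic hormone related to calcitonin gene-related peptide. It had 5, 26 and 4 counts, and its ratio in Dcg > Hpo was 4.91 (1.85 to 16.4).

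AstC and Mip were the least certain of the group. AstC (FBgn0032336, 2L, 11076165 to 11081399), which encodes allatostatin C, had 5, 15 and 0 counts. Its ratio of 2.83 in Dcg > Hpo had an interval of 0.978 to 9.96, which holds 1. Mip (FBgn0036713, chromosome 3L, 17344947 to 17349666) encodes the myoinhibitory peptides and had 0, 2 and 0 counts, which gives no fold. Its 2 counts were 0.426% of the sum of the 10 genes in Dcg > Hpo (0.0516 to 1.53).

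Within the Dcg > Hpo library the order of counts was AstA, Capa, Hug and Crz level at 53, NPF, Dh31, Pdf, AstC, Dh44 and Mip. Neighbours in this order had overlapping counting intervals, except that Capa (85.9 to 127) lay above Hug and Crz (39.7 to 69.3 each) and that Mip (0.242 to 7.22) lay below Dh44 (7.65 to 23.5). AstA gave 28.9% of the sum (24.9 to 33.3) against 45.6% in the control, and Hug, Crz and NPF gave 11.3%, 11.3% and 10.4% against 0%, 5.56% and 0%. AstA thus made up a smaller part of the peptide reads in Dcg > Hpo, with intervals that do not overlap, while those of Crz do.

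**Figure D2:**
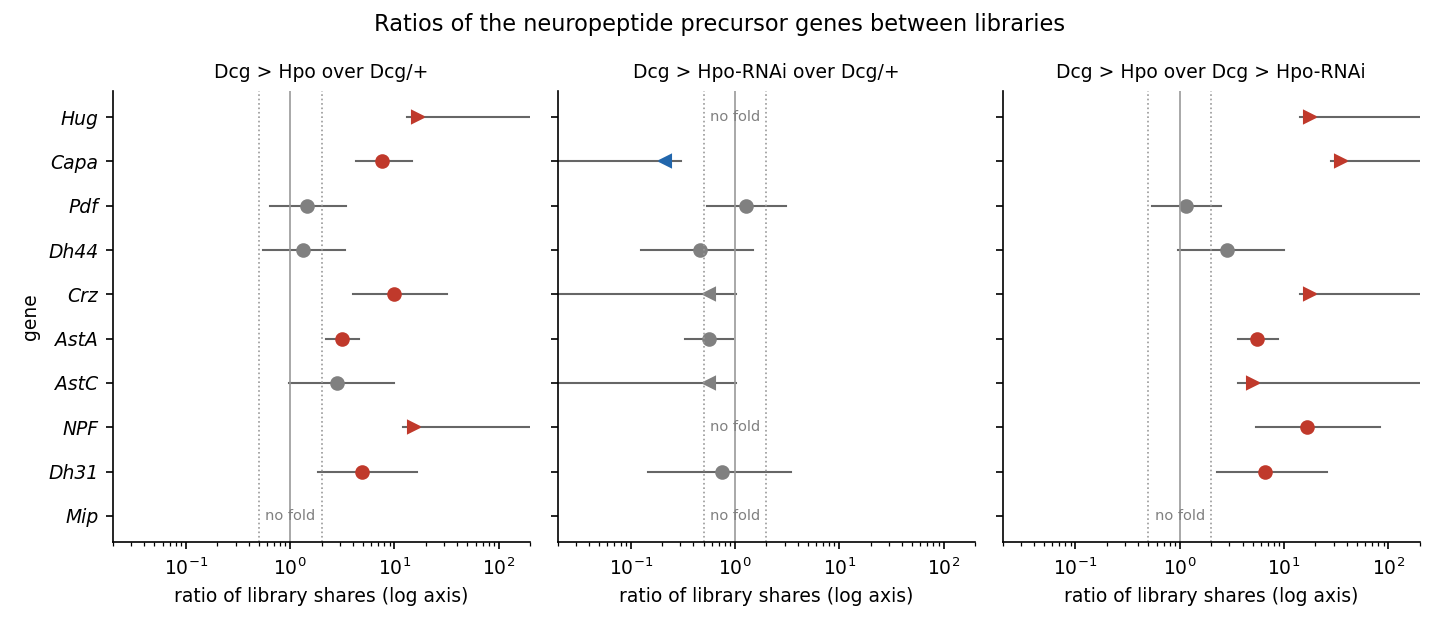
Ratio of library shares for each gene (horizontal log axis) in the 3 comparisons, with Clopper-Pearson 95% intervals as lines. Red points were called higher, blue lower and grey neither. Triangles are folds in which a count of 0 was set to the floor, and dotted lines mark 0.5 and 2. In Dcg > Hpo over Dcg/+ 6 genes are red, in Dcg > Hpo-RNAi over Dcg/+ Capa alone is blue, and in Dcg > Hpo over Dcg > Hpo-RNAi 7 are red.

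The 2 groups of peptides were then set side by side, neurons alone against neurons and gut. The brain peptides summed to 39, 242 and 20 counts, and the brain and gut peptides to 51, 228 and 32. In Dcg > Hpo over Dcg/+ the ratios were 5.86 (4.16 to 8.44) and 4.22 (3.10 to 5.83), and 3 of 5 genes were called higher in each group. Which group had the larger ratio depended on AstA. Without it the brain and gut peptides had 10, 92 and 7 counts and a ratio of 8.68 in Dcg > Hpo (4.51 to 18.7), above that of the brain peptides. These sums describe chosen genes in single libraries, and no difference between the groups is drawn from them.

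The Hpo knockdown library held fewer peptide reads than the control. The 10 genes summed to 52 counts in Dcg > Hpo-RNAi, or 2.21 CPM, 0.538 of the control share (0.375 to 0.766), and 5 of the 10 had any count. Capa was the only gene called lower, with 13 counts in the control and 0 here, and 0 were called higher. With the floor the ratio of Capa was 0.215, and its interval ended at 0.306. Among all genes with a count, 8.05% were called lower and 6.74% higher. With quantile normalization 4 genes passed 2-fold on the lower side (Capa, Dh44, Crz and AstC) and NPF on the higher. Crz and AstC, with 5 counts in the control and 0 here, had intervals that reached 1.02. The brain peptides stood at 0.478 of their control share (0.264 to 0.839), but at 0.717 (0.379 to 1.33) without Capa, and the brain and gut peptides at 0.585 (0.364 to 0.927), or 0.652 (0.211 to 1.90) without AstA. The median log2 ratio of the 10 genes was -0.57, beside 0.03 for all genes, and 3 of them (Hug, NPF and Mip) had no fold.

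Set directly against each other, the Dcg > Hpo library held 9.15 times the peptide share of Dcg > Hpo-RNAi (6.86 to 12.4). AstC joined the 6 genes named above, with 15 counts against 0 (5.06-fold with the floor, interval from 3.63). Thus 7 of 10 were called higher and 0 lower, where 17.0% and 21.2% of all genes were. Capa had 105 counts against 0 (35.4-fold with the floor, interval from 28.3). Hug and Crz had 53 against 0 each (17.9-fold with the floor, interval from 14.1), and NPF had 49 against 3 (16.5-fold, 5.34 to 83.0). Folds against 0 depend on the floor and give no order. Pdf had 17 against 15 counts, a ratio of 1.15 (0.539 to 2.47). The brain peptides were 12.3-fold (7.76 to 20.4) and the brain and gut peptides 7.22-fold (4.97 to 10.8). Without Capa and without AstA these became 6.94 and 13.3. All 3 comparisons share libraries, so they are not separate observations of a gene.

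The receptors of these peptides were measured in the same libraries. The list holds 15 receptor genes, and their summed counts were 274, 682 and 204. With Hpo overexpression 7 passed the rule upwards and 1 downwards, around a median log2 ratio of 1.35. Pdfr, the receptor of Pdf, had 13, 139 and 21 counts (10.1-fold in Dcg > Hpo, 5.71 to 19.4), whereas Pdf itself was not called. AstA-R1 had 6, 62 and 0 counts and, like its ligand, was called higher, at 9.75-fold (4.23 to 27.6), while AstA-R2 had 22, 25 and 10. Dh44-R2, the receptor gene with the most counts, had 160, 287 and 132 (1.69-fold, 1.39 to 2.07). PK1-R, a receptor of the Capa pyrokinin, was the one called lower, with 8 counts in Dcg/+ and 0 in both other libraries.

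Peptide and receptor calls did not match gene by gene. Of 15 pairs of a peptide and its receptor, 4 were called higher on both sides in Dcg > Hpo (Capa with CapaR, AstA with AstA-R1, NPF with NPFR and Dh31 with Dh31-R). In 4 pairs the peptide alone was called, in 3 the receptor alone, in 3 neither, and 1, Capa with PK1-R, was called in opposite directions. CapaR had 0, 11 and 6 counts and NPFR had 0, 7 and 2, so these calls rest on few reads. In Dcg > Hpo-RNAi 6 receptors were called lower and 0 higher (PK2-R2, PK1-R, AstA-R1, AstA-R2, CrzR and SPR, the receptor of the Mip peptides and of sex peptide). CrzR had 17, 25 and 0 counts, so that Crz and its receptor both had no read in the knockdown library.

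**Figure D3:**
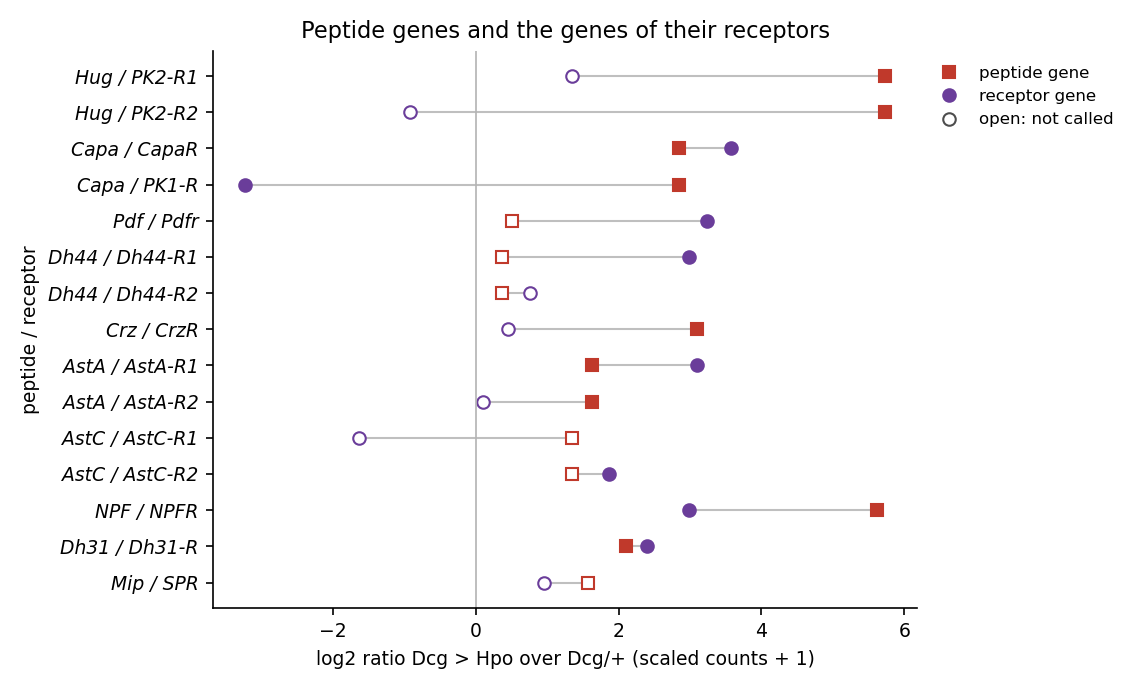
Log2 ratio of Dcg > Hpo over Dcg/+ (counts scaled to a common total, plus 1) for each peptide gene (squares) and the gene of its receptor (circles), joined by a line; filled symbols were called. Both symbols lie to the right and are filled for 4 of 15 pairs, and PK1-R is the filled circle on the left.

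Genes that mature and release neuropeptides gave a mixed pattern. Of 11 such genes 5 passed the rule upwards and 0 downwards in Dcg > Hpo, around a median log2 ratio of 0.90. They were amon, the prohormone convertase that cuts the precursors (15, 38 and 2 counts), its chaperone 7B2 (134, 492 and 252), Cadps, which primes dense-core vesicles for release (15, 121 and 23), the vesicle protein gene IA-2 (308, 2365 and 235) and Pal2, a lyase of the amidation step (5, 16 and 13). Phm, the first enzyme of peptide amidation and the most counted of the list, had 2974, 3119 and 3469 counts, and Fur1, a furin-like protease, had 1464, 1544 and 2366. In Dcg > Hpo-RNAi amon and Fur2 were called lower and 0 higher. dimm, a transcription factor that drives the secretory program of peptidergic neurons, had 0 counts in all 3 libraries.

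Other peptide genes were set beside the 10. Among 20 further peptide genes of the central nervous system 9 were called higher with Hpo overexpression and 0 lower, around a median log2 ratio of 1.12. Examples are Eh, the eclosion hormone, with 0, 42 and 0 counts, FMRFa with 0, 39 and 0, and sNPF with 0, 29 and 0. SIFa, the most counted of them, had 120, 199 and 143 counts, ITP, the ion transport peptide, had 78, 197 and 101, Ptth, which triggers ecdysone release, had 41, 120 and 116, and Proc had 17, 136 and 14. In Dcg > Hpo-RNAi 3 were called higher (Ptth, Trissin and natalisin) and 3 lower (Lk, CNMa and Ilp7). Of 4 other enteroendocrine peptide genes none was called in Dcg > Hpo. CCHa2, a nutrient signal that the larval fat body makes as well as the gut, had 3366, 2327 and 2534 counts, more than all 10 genes together. Orcokinin had 22, 40 and 6 counts and was called lower with knockdown, CCHa1 had 4, 4 and 29 and was called higher, and Tk, the tachykinin gene of gut and brain, had 0, 3 and 0. Among 11 other peptide hormones 7 were called higher with Hpo overexpression and 0 lower, around a median log2 ratio of 2.74. The insulin-like peptide genes Ilp2, with 0, 196 and 0 counts, and Ilp3, with 0, 54 and 0, and the adipokinetic hormone gene Akh, with 0, 43 and 0, had reads in that library alone, as Hug did. Nplp2, the most counted of them, had 6049, 3972 and 2614 counts and was the one called lower with knockdown. Whether the lists differ from each other was not tested.

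Markers of other tissues moved in the same library as the peptide genes, and their part in the result was not tested. Of 20 neuron genes 18 passed the rule upwards and 1 downwards in Dcg > Hpo, around a median log2 ratio of 2.58, with summed levels of 275, 411 and 313 CPM, and Gad1 in the knockdown library was the only one at 0. elav, an RNA-binding protein of all neurons, had 129, 1540 and 177 counts, and nSyb, a protein of synaptic vesicles, had 58, 302 and 24. Syt1, the most counted of that list, had 4454, 2553 and 4143, and ple, the tyrosine hydroxylase that cuticle cells use too, was the gene called lower (96, 26 and 1184). In Dcg > Hpo-RNAi over Dcg/+ 2 neuron genes were called higher, ple among them, and 3 lower (nSyb, brp and Rdl). The summed level of that library thus rests in part on ple. Of 6 glia genes, 1 was called higher and 0 lower, and repo, the defining glial gene, had 49, 51 and 31 counts.

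All 4 transcription factor and fate genes of enteroendocrine cells, which neural precursors use too, were called higher in Dcg > Hpo, with summed levels of 1.55, 47.0 and 1.40 CPM. pros had 19, 923 and 26 counts, tap had 8, 114 and 2, and sc had 0, 12 and 0. Of 15 enterocyte genes 8 were called higher and 3 lower (238, 1330 and 296 CPM). Jon65Aiv, a digestive protease called higher, had 185, 11143 and 759 counts. The 3 called lower were Jon99Ciii (189, 84 and 26), Amy-d (21, 1 and 13) and Vha100-4 (47, 2 and 56). Amy-p and lab had 0 in Dcg > Hpo and were not called there. Of 8 ring gland genes 6 were called higher and 1 lower. Akh, already counted among the other peptide hormones, is 1 of these 6. phm, an enzyme of ecdysone synthesis, had 0, 172 and 0 counts, and sro, the one called lower, had 1954, 689 and 2120. 

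**Figure D4:**
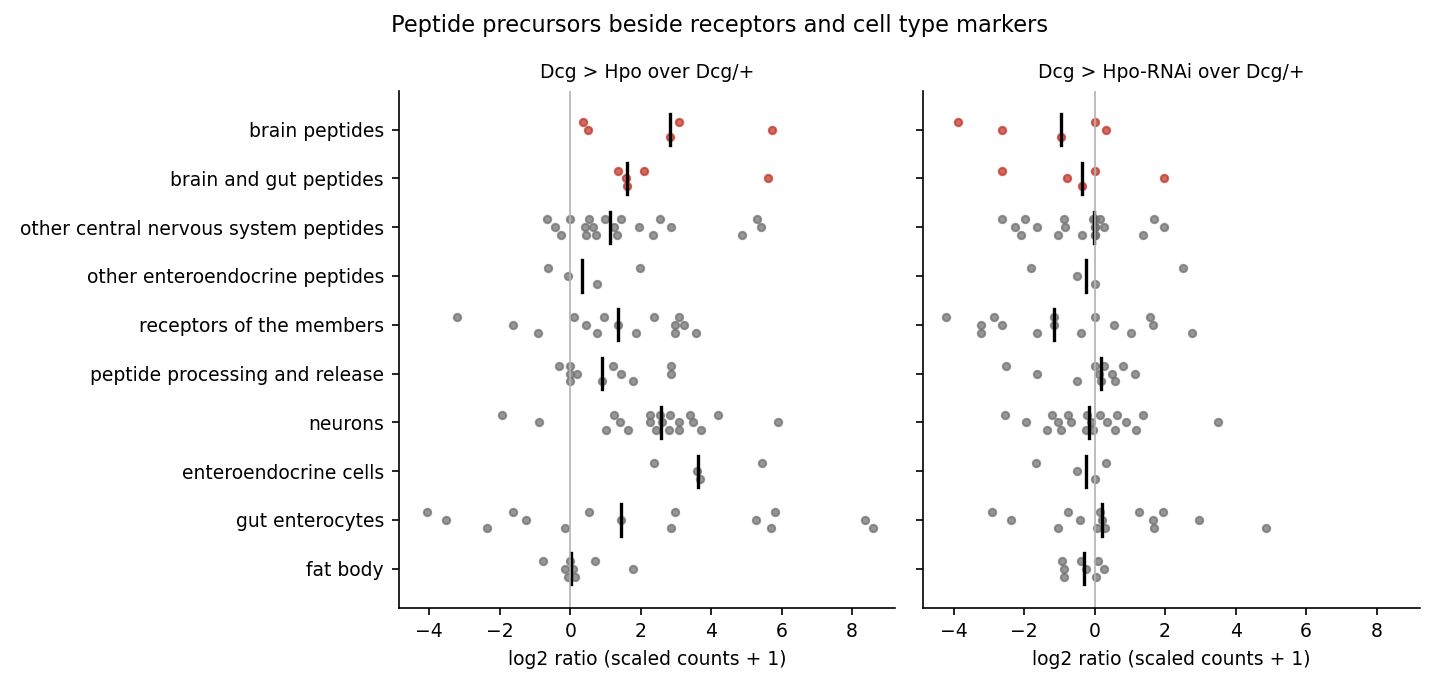
Log2 ratio (horizontal axis, counts scaled to a common total, plus 1) of each gene in 10 lists, for Dcg > Hpo (left) and Dcg > Hpo-RNAi (right) over Dcg/+; points are genes, black bars medians, and red marks the 10 peptide genes. On the left the neuron genes have a median of 2.58 and the fat body genes of 0.04, and on the right the medians are -0.15 and -0.31.

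Genes with a pattern like that of a peptide gene were sought by the distance between their shares of scaled counts over the 3 libraries (0 for identical, 1 for no overlap). This was done for the 5 peptide genes with at least 50 counts in all, against 10522 other genes with at least 50 counts. For Hug, 17 genes were at distance 0, all counted in Dcg > Hpo alone, and CG32071 (799 counts) and CG31267 (277) were the most abundant of them. The nearest to Capa were CG43182 (7, 57 and 0 counts) and CG32198 (1400, 11662 and 7). For Crz they were CG4467 (8, 84 and 0) and AstA-R1, for AstA CG16712 (9257, 30013 and 5595) and Tina-1 (115, 373 and 71), and for NPF CG31827 (1, 253 and 14) and CG17374 (4, 230 and 13). The number of genes within a distance of 0.05 was 63 to 113 per peptide gene. A small distance means nearly equal proportions over the 3 libraries, and a likeness over 3 libraries is weak.

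The loci of the 10 genes are given as a description of chosen genes, and whether they differ from other genes was not tested. Of the 10, 7 lie on 3R, an arm that holds 24.5% of the 13986 annotated protein-coding genes, and the others are on 2L and 3L. The precursors are short: they range from 102 residues (Pdf and NPF) to 356 (Dh44), with a median of 151, beside 391 for protein-coding genes. Pdf has a single exon, and the others have 2 to 5. The longest annotated 3′ UTR, where the reads of such libraries fall, runs from 107 bases in Crz to 983 in Dh44. Dh31 holds Bace inside an intron (2, 2 and 0 counts). Dh44 holds Fst, on the opposite strand and inside an intron, with 968, 4642 and 477 counts. Dh44 itself had 10, 14 and 5, an order that was not resolved. Hug lies inside Octbeta3R, as given above. The other 7 genes overlap no annotated gene.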

How the data were processed

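RNA of 3 genotypes was measured in 3 libraries, 1 per genotype, made with the QuantSeq 3′ mRNA kit. Raw read counts of 16509 genes were deposited, made for the authors by a service company, with dm6 as the build in the submitters' notes. How reads were aligned and counted, and whether by strand, is not given in the sources used here. Counts were not filtered. Ratios compare shares of the library total, and a group of genes is compared by its summed counts. Across all genes the same rule gave the percent called. No test between genotypes is possible with 1 library each, and no paired analysis was possible for the same reason.

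The 10 members and all gene lists were chosen with earlier results of these data known. The rule for named genes takes all 10, hpo, the genes of the lists (led by the 4 with the most counts and those called in the rarer direction) and the 2 nearest patterns per gene. Other genes of the lists named in the text, and the most counted of the genes tied with Hug, were picked after their values were seen. Of 141 list symbols 141 were matched, 7 by another symbol of the same gene. Loci come from Ensembl 115, on dm6 coordinates. Protein and promoter sequences were not used here. Alternatives were TMM (edgeR 4.0.16), median-of-ratios (DESeq2 1.42.0) and quantile (limma 3.58.1) scaling, thresholds of 1.5 and 3, pseudocounts of 0.5 and 5, and a mean of at least 10 counts. The steps were tested on simulated Poisson counts without spread between animals. Changed genes were taken only from those with an expected count of at least 10, so members with fewer counts are not covered. Python 3.11.15, scipy 1.17.1 and R 4.3.3 were used.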

Additional observations from a re-analysis of the deposited data

How the results depend on the processing

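Of 147 values recomputed under an alternative, 138 stayed within the main interval or within 1.5 times the main count, 0 reversed and 9 moved. A ratio against 0 has no upper limit, so a rise in it could not count as moved. With TMM factors and with median-of-ratios factors all counts of called peptide genes were the same as with library totals, although TMM shifted the median of all genes in Dcg > Hpo over Dcg/+ from 0.04 to -0.09 on the log2 scale. Quantile normalization, which has no interval and counts any gene past 2-fold, gave 10 genes higher with overexpression, and with knockdown 1 higher and 4 lower, with summed overexpression ratios of 9.78 for the brain and 5.97 for the brain and gut peptides. In Dcg > Hpo over Dcg/+ it took Pdf from 1.46 to 2.95, Dh44 from 1.32 to 2.69, AstC from 2.83 to 4.99 and Dh31 from 4.91 to 7.61, and over Dcg > Hpo-RNAi Pdf from 1.15 to 2.17 and Dh44 from 2.84 to 5.47, within their counting intervals. For genes at 0 it uses values plus 1 in place of the floor of 3 counts. Hug (63 over Dcg/+), NPF (59.2), Capa (111 over Dcg > Hpo-RNAi), Crz (63) and AstC (23.8) are therefore on another scale than the floor-based folds of 16.7, 15.4, 35.4, 17.9 and 5.06. A threshold of 1.5-fold added AstA to the genes called lower in Dcg > Hpo-RNAi (2 in all). Without AstA the brain and gut ratio was 8.68 over Dcg/+ and 13.3 over Dcg > Hpo-RNAi. Without Capa, an alternative chosen after the data were seen, the brain ratio over Dcg > Hpo-RNAi was 6.94. The cause of these shifts was not tested beyond the construction of each alternative. A count of 0 has an interval up to 3.69 counts, and 6 of the 10 genes had at most 5 counts in both Dcg/+ and Dcg > Hpo-RNAi. No replicate library shows how far such counts vary between animals. No paired analysis was possible because each genotype has 1 library, and for the same reason no replicate could be left out.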
